A study of Mus musculus with 2 samples.

Results

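The genes described here are 9 regulators that cells switch on quickly and that, in most cases, damp the signal that induced them. They are the Krüppel-like transcription factors Klf2, Klf4 and Klf6, the mRNA decay factor Zfp36, the MAP kinase phosphatase Dusp1, the NF-kappaB inhibitors Nfkbia, Nfkbiz and Tnfaip3, and the cytokine receptor inhibitor Socs3. They were chosen by name as 9 of the 17592 gene columns of a single-cell table of the mouse dentate gyrus, and all 9 had a column. The dentate gyrus, the part of the hippocampus where granule neurons form in adult life, was dissected from C57BL/6 mice of 3 months (young) and 16 months (old), with 1 library per age. Both ages are wild-type as far as the labels say, with no treatment named, and how many mice each library pooled is not stated. Cells were released with papain, an enzyme that digests the tissue matrix, sorted as live cells that exclude propidium iodide, and sequenced with a droplet kit that tags the 3′ end of each captured mRNA with a unique molecular identifier (UMI).

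In microglia and other immune cells, pathogen, cytokine or damage signals activate NF-kappaB and MAP kinases, and the genes they induce include inhibitors of the same routes. Nfkbia encodes IkappaB-alpha, which holds NF-kappaB in the cytoplasm, Tnfaip3 encodes the ubiquitin-editing protein A20, and Nfkbiz encodes the nuclear protein IkappaB-zeta, which also helps switch on a subset of NF-kappaB targets. Dusp1 removes the activating phosphates of p38 and JNK, Zfp36 (tristetraprolin) binds AU-rich elements in cytokine mRNAs and sends them to decay, and Socs3 blocks JAK signalling at receptors that use gp130. In endothelium, Klf2 and Klf4 are induced by laminar blood flow and maintain a quiescent, anti-thrombotic state.

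The young library held 2463 cells and 16217559 UMIs, with a median of 6663 per cell, and the old library 1430 cells and 7451506 UMIs, with a median of 3856. Of the old barcodes, 1401 (98.0%) also occurred in the young library, and 1109 barcodes of brain classes were in both, of which 1108 fell in the same class. The brain rows of the old library are therefore mostly the same cells under another label, so the values below are from young rows, old rows are a repeat of them, and no comparison of ages is drawn. Cells were clustered without the 9 genes and the pathway genes named below, and clusters were called "X-like" from marker genes. The young rows gave 388 microglia-like, 301 astrocyte-like, 129 endothelial-like, 79 mature oligodendrocyte-like, 70 pericyte-like and 58 neuroblast-like cells (neuroblasts or immature granule neurons), which are the 6 main classes. Of the listed markers of each main class, 12 or 13, and 10 for pericytes, every one was seen in at least 25% of its cells. Smaller classes were 48 oligodendrocyte precursor-like, 14 smooth muscle-like, 10 perivascular macrophage-like and 5 B cell-like cells, and 42 cells stayed unnamed. A further 1319 young cells lay in clusters with under 1% mitochondrial UMIs and were not named. Mature granule neurons, the main neurons of this tissue, formed no class.

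Levels are UMIs per 10,000 UMIs summed over all cells of a class, with exact Poisson 95% intervals. Each captured transcript gives 1 count at its 3′ end, so levels of different genes need no division by length. With 1 library there is no replicate, no difference between classes has a test, and all intervals cover counting error only. A difference is given where the interval of the ratio of levels lies above 1, and a gene is counted as higher or lower in a class where log2(level + 0.1) differs by at least 2-fold from the mean of the other 5 main classes.

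Most of the genes are compact, and several carry the sequence elements their textbook regulation is named for. The median gene length of the 9 was 5324 bases in GENCODE M21 (GRCm38), against 24075 over 15431 coding genes of the table, and the median number of exons was 5 against 9. The models of Dusp1 (56539 bases) and Nfkbiz (27525 bases, 14 exons) were longer than the median of all genes. Klf2 lies at chr8:72319033-72321656, Klf4 at chr4:55527143-55532466, Klf6 at chr13:5861482-5870394, Zfp36 at chr7:28376784-28380253 and Dusp1 at chr17:26505590-26562128. Nfkbia lies at chr12:55489410-55492647, Nfkbiz at chr16:55811375-55838899, Socs3 at chr11:117966079-117970047 and Tnfaip3 at chr10:19000910-19015657. In these annotations exons of Zfp36 overlap those of the gene model Gm44710 in position, with strand left out of account. Of 477 short stretches at the 3′ end of Zfp36 transcripts, 0% were shared with transcripts of another gene. The AU-rich nonamer TTATTTATT, the kind of site Zfp36 protein binds, occurred in the 3′ UTR of 4 of the 9 genes and of 8.03% of 15147 genes with a 3′ UTR of at least 50 bases. The sites in Zfp36 itself, Dusp1 and Nfkbia are shown because Zfp36 is one of the 9. In the lines below the capitals mark the nonamer within 30 bases of the 3′ UTR.
Zfp36: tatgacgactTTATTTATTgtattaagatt
Dusp1, upstream site: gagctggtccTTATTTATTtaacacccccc
Dusp1, downstream site: gtttttacctTTATTTATTtttgtgtaggt
Nfkbia: ggaccacgttTTATTTATTgtgcttttgat
The shorter core ATTTA had a median density of 2.75 per kb of 3′ UTR in the 9 genes and 1.30 over all genes. Dusp1 had the highest density, 5.80, and Klf4 the lowest, 1.02.

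Promoter sequence, 250 bases before the RefSeq start site (GRCm38.p6), was held for 8 of the 9 genes, all but Nfkbiz. The stretches below are those of Klf2 and Klf4, the pair highest in endothelial-like cells among the main classes, and of Nfkbia and Socs3, which were highest in microglia-like cells; the Klf2 stretch ends where the GENCODE gene begins, and the Socs3 stretch lies within the wider GENCODE gene but in none of its exons. The capitals mark GC boxes (GGGCGG on either strand) and, in Nfkbia and Socs3, also the NF-kappaB and STAT matches described next.
Klf2, chr8:72318812-72319032 (+ strand): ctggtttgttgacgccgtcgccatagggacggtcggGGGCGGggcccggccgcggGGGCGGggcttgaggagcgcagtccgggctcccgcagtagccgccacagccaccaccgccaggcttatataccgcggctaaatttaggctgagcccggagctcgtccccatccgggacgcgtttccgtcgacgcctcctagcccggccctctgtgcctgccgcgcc
Klf4, chr4:55532476-55532725 (- strand): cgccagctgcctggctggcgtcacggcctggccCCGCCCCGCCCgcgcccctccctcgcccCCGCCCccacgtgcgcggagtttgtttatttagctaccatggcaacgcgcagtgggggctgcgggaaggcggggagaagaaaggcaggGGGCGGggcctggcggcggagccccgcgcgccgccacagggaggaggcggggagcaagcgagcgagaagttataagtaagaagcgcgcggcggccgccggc
Nfkbia, chr12:55492648-55492897 (- strand): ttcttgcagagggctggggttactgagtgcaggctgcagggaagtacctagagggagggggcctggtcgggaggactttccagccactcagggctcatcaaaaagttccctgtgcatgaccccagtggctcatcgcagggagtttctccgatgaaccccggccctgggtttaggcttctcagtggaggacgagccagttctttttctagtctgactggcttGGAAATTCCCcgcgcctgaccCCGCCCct
Socs3, chr11:117969367-117969616 (- strand): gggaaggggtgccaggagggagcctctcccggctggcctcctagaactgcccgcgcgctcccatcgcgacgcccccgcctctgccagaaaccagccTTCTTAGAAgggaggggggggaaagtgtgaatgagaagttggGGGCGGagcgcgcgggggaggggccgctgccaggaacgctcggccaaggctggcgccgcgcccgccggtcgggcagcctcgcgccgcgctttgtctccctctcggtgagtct
GC boxes were found in 32.7% of all 32851 promoters in the table, and there were 2 in Klf2 and 4 in Klf4, of which 2 overlap by 1 base. The Nfkbia promoter held a match to the strictest NF-kappaB pattern at -29 to -20, a pattern found in 0.283% of promoters, and Socs3 held the STAT pattern TTCNNNGAA at -154 to -146, found in 7.02%. Shorter stretches show 1 match each in 3 other promoters, again in capitals. All 3 matches lie inside the wider GENCODE genes. Of the 250 promoter bases, all 250 of Zfp36 and 47 of Dusp1 lie in annotated exons of the same gene, and none of Tnfaip3.
Dusp1, cyclic AMP response element at -143 to -136: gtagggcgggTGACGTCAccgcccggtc
Zfp36, CArG box at -58 to -49: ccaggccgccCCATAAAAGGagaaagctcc
Tnfaip3, AP-1 pattern at -136 to -130: aatgcccaggTGACTCAcgcggggaca
TGACGTCA was found in 1.55% of promoters, the CArG box, which serum response factor binds, in 1.47%, and TGANTCA in 6.75%. The same 3 promoters also held matches not shown. Among them, Tnfaip3 had the loosest NF-kappaB pattern at -12 to -3, found in 4.65% of promoters. Zfp36 had the STAT pattern at -17 to -9, and Dusp1 had 4 matches to the KLF pattern CCACCC, found in 28.1%. The Klf6 promoter held 1 GC box and none of the other patterns searched. Both strands were searched, and a match is a string of letters, not a shown binding site.

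Among the 6 main classes, 7 of the 9 genes were highest in microglia-like cells, and Klf2 and Klf4 were highest in endothelial-like cells. In microglia-like cells 8 of the 9 genes were at least 2-fold higher than in the other classes, where 9.09% of 11831 genes were, and none was lower, where 25.0% were. Klf2 was the exception, at a log2 ratio of 0.90 against a mean that includes the higher endothelial level. In endothelial-like cells 4 genes were higher (Klf2, Klf4, Dusp1 and Nfkbia; 8.27% of all genes) and 2 were lower (Nfkbiz and Socs3; 18.9%). All 9 genes were lower in astrocyte-like (16.2% of all genes), neuroblast-like (19.0%) and oligodendrocyte-like cells (24.9%), and none was higher there, against 11.7%, 11.5% and 6.96% of all genes. Pericyte-like cells had 4 lower (17.8%) and none higher (7.20%). That lower count depends on few cells. Without 4 of the 70 cells, rich in microglial markers as described below, Zfp36 (4.45 to 2.48) and Nfkbiz (0.94 to 0.24) were lower too. The same 2 genes also counted as lower in old rows, at 2.81 and 0.21. The summed level of the 9 genes was 113 UMIs per 10,000 in microglia-like, 86.9 in endothelial-like, 18.2 in pericyte-like, 3.97 in astrocyte-like, 2.80 in neuroblast-like and 1.54 in oligodendrocyte-like cells. The heat map of ratios shows the split between the KLF pair and the rest.

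**Figure D1:**
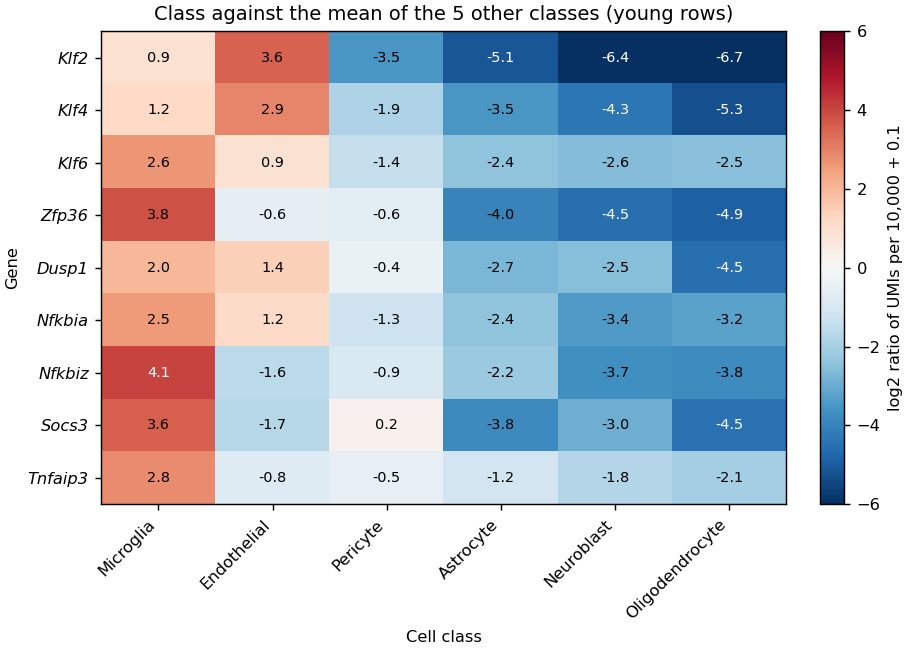
Each cell of the map is the log2 ratio of a gene's level (UMIs per 10,000 + 0.1) in 1 class (columns) to the mean of the other 5 main classes, in young rows. Microglia-like cells are above 0 for all 9 genes, endothelial-like cells lead for Klf2 and Klf4, and the astrocyte-like, neuroblast-like and oligodendrocyte-like columns are below -1 throughout.

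Klf2, the flow-responsive factor, reached 41.8 UMIs per 10,000 in endothelial-like cells (95% interval 40.0 to 43.7) and 16.1 in microglia-like cells (15.7 to 16.6). The old rows gave 41.5 and 15.8. The endothelial level was 2.59 times the microglial level (2.46 to 2.74), and Klf2 ranked 16 among all genes in endothelial-like cells. Beyond these classes it was far lower, with pericyte-like cells at 0.94, astrocyte-like at 0.24, neuroblast-like at 0.04 and oligodendrocyte-like at 0.01. A Klf2 UMI was seen in 96.1% of endothelial-like cells (median depth 3237 UMIs) and 81.4% of microglia-like cells (median 7815), against 1 of 79 oligodendrocyte-like cells, 1.27%, at a median of 9609. The last pair of classes in the order did not differ beyond counting error. The 5 B cell-like cells had 51.9, with 79.8% of their Klf2 UMIs in 2 cells.

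Klf4, its close relative, followed the same order of classes. It reached 11.4 in endothelial-like cells (10.5 to 12.5) and 5.90 in microglia-like cells (5.62 to 6.18), a ratio of 1.94 (1.76 to 2.14). Pericyte-like cells had 0.90 and astrocyte-like cells 0.24. Neuroblast-like cells had 4 Klf4 UMIs in all, and no Klf4 UMI was seen in 79 oligodendrocyte-like cells, which, with 3 counts as the most that a count of 0 allows, leaves room for a level of up to 0.0421 and for up to 3.80% of cells with a UMI (the exact Poisson upper bound of the level is 0.0518). Klf6, a factor expressed in many tissues and induced by injury, had the opposite order at the top. It was 9.92 in microglia-like (9.57 to 10.3) and 4.88 in endothelial-like cells (4.26 to 5.57), a ratio of 2.03 (1.77 to 2.34). Klf6 was also the flattest KLF gene of the 9 below them, between 0.47 and 1.16 in the other 4 classes, and astrocyte-like, oligodendrocyte-like and neuroblast-like cells did not differ beyond counting error.

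**Figure D2:**
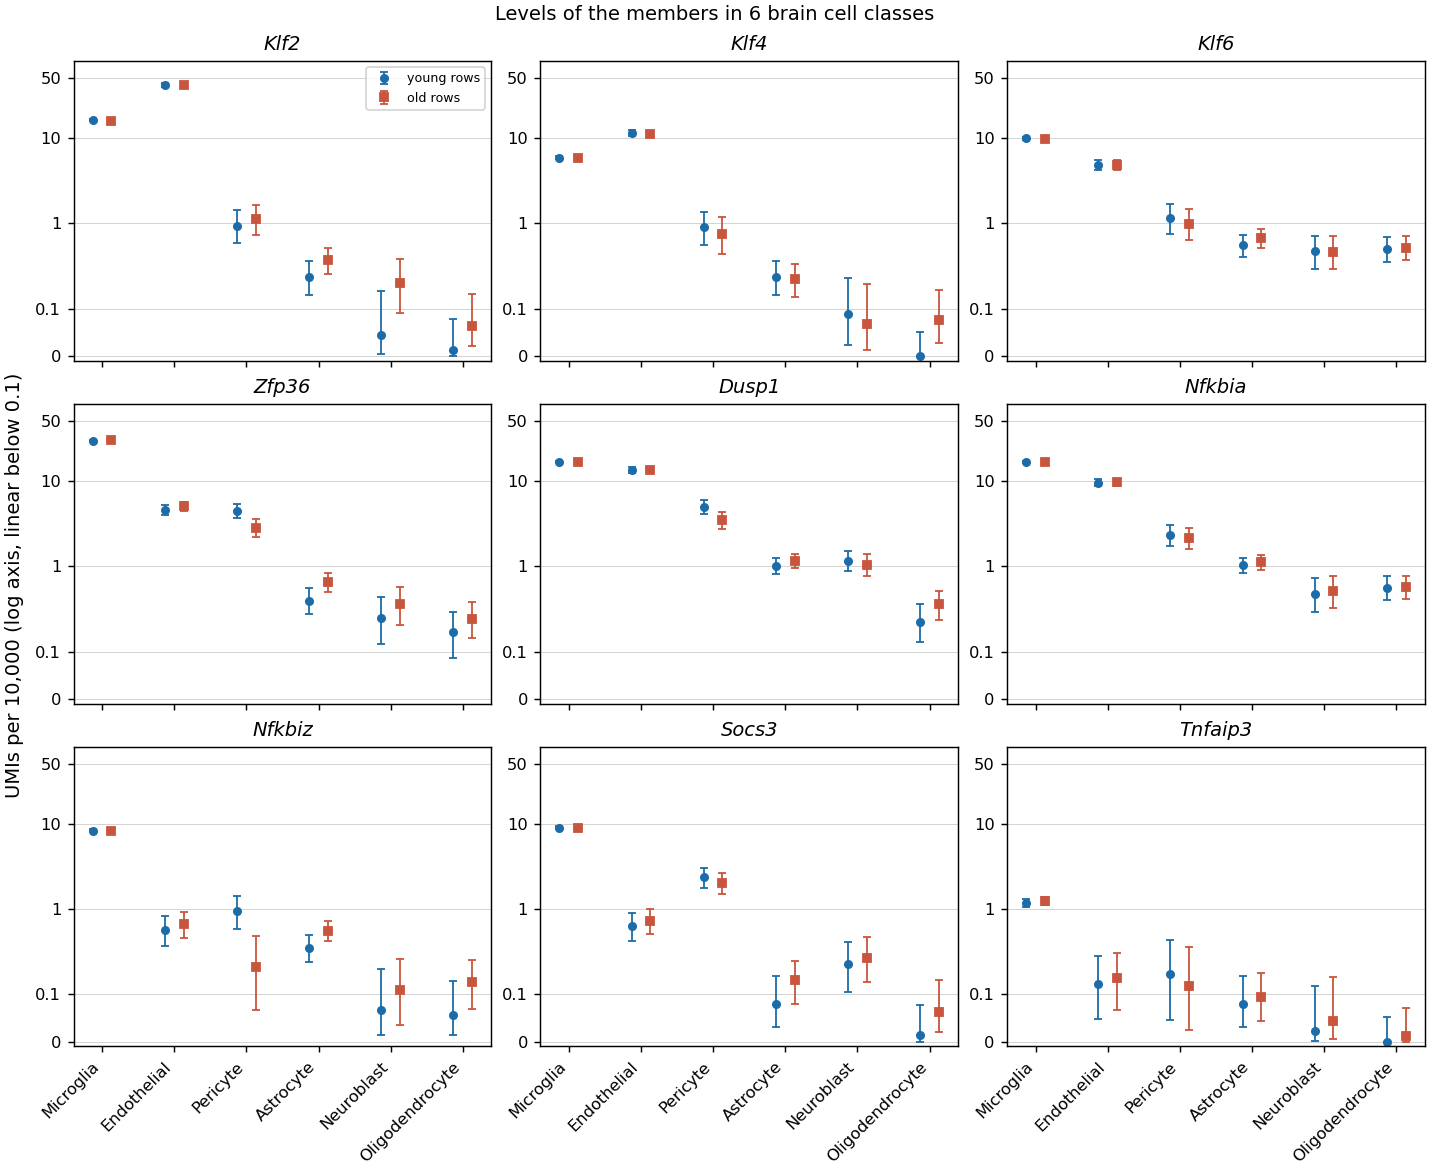
Each panel is 1 gene, with its level in UMIs per 10,000 (log axis, linear below 0.1) in the 6 main classes; circles are young rows, squares old rows, and bars are exact Poisson 95% intervals. Klf2 and Klf4 peak in endothelial-like cells and the other 7 genes in microglia-like cells in both sets of rows, which are mostly the same cells.

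Zfp36 was the most abundant of the 9 in microglia-like cells, at 29.3 UMIs per 10,000 (28.7 to 30.0), where it ranked 39 among all genes and was seen in 97.4% of cells. The old rows gave 30.0. Endothelial-like cells had 4.56 and pericyte-like cells 4.45, which did not differ beyond counting error (ratio 1.02, 0.80 to 1.31), and the microglial level was 6.44 times the endothelial one (5.61 to 7.42). The pericyte value depends on few cells: 4 of 70 pericyte-like cells carried at least 50 UMIs of 13 microglial markers per 10,000, and without them it was 2.48. Zfp36 was at or below 0.39 in the astrocyte-like, neuroblast-like and oligodendrocyte-like classes.

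Dusp1 was the most even of the 9 across microglia and endothelium. Its level was 16.8 in microglia-like cells (16.3 to 17.3) and 13.3 in endothelial-like cells (12.3 to 14.4), a ratio of 1.26 (1.16 to 1.37). Pericyte-like cells followed at 4.97, or 3.73 without the 4 cells rich in microglial markers. Neuroblast-like and astrocyte-like cells, at 1.17 and 1.02, did not differ beyond counting error, and oligodendrocyte-like cells had 0.22. In astrocyte-like cells 48.9% of the Dusp1 UMIs came from 2 of the 301 cells.

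Nfkbia, the classic NF-kappaB feedback inhibitor, had 16.7 UMIs per 10,000 in microglia-like cells (16.2 to 17.1) and 9.50 in endothelial-like cells (8.63 to 10.4), a ratio of 1.75 (1.59 to 1.94). It stayed measurable elsewhere, at 2.31 in pericyte-like, 1.03 in astrocyte-like, 0.56 in oligodendrocyte-like and 0.47 in neuroblast-like cells. A Nfkbia UMI was found in 38.0% of oligodendrocyte-like cells and 31.0% of neuroblast-like cells (median depths 9609 and 8473.5), against 13.4% of the low-mitochondrial cells (median 7235). The related Nfkbiz was more restricted. It had 8.26 in microglia-like cells (7.94 to 8.59) and at most 0.94 in any other main class, and the pericyte value of 0.94 became 0.24 without the 4 cells rich in microglial markers, since 1 cell held 17 of its 22 UMIs. In endothelial-like cells Nfkbiz and Nfkbia lay far apart, at 0.57 and 9.50.

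Tnfaip3 was the least abundant of the 9, at 1.18 in microglia-like cells (1.06 to 1.31), with a UMI in 51.0% of them. The 4 pericyte-like and 6 endothelial-like UMIs gave 0.17 and 0.13, and no Tnfaip3 UMI was seen in oligodendrocyte-like cells, with the same limits as for Klf4. None of the 4 neighbouring pairs of classes below microglia differed beyond counting error. Socs3 had 8.95 in microglia-like cells (8.62 to 9.30) and came next in pericyte-like cells, at 2.36 (1.77 to 3.07), 3.73 times the endothelial 0.63 (ratio interval 2.33 to 6.06). Without the 4 marker-rich cells the pericyte level was 2.01, and 1 pericyte-like cell held 20 of the 55 UMIs. The lowest Socs3 levels were those of neuroblast-like (0.22), astrocyte-like (0.08) and oligodendrocyte-like cells (0.01).

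Cells rich in microglial markers also occurred elsewhere: 8 of 301 astrocyte-like, 2 of 129 endothelial-like and 3 of 48 oligodendrocyte precursor-like cells reached the same limit. So did 33 of the 42 unnamed cells and all 10 perivascular macrophage-like cells. Leaving all such cells out kept the 12 counts of genes at least 2-fold higher or lower within 1.5 times their value. The lower count in pericyte-like cells rose, since Zfp36 fell to 2.48 and Nfkbiz to 0.24, both then past the 2-fold limit. In all, 4 levels, all in pericyte-like cells (Zfp36, Dusp1, Nfkbia and Nfkbiz), moved beyond their intervals. All 13 microglial markers were above 0 in pericyte-like cells, with a summed level of 36.5 against 468 in microglia-like cells. In oligodendrocyte precursor-like cells 44 of 71 Zfp36 UMIs lay in 1 cell, and 80.3% lay in 2.

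Each of the 9 genes was seen in some of the 10 perivascular macrophage-like cells, and none in all 10. Klf6 had a UMI in 7 of these cells, and Klf4, Dusp1 and Nfkbia in 5. Zfp36 and Nfkbiz had one in 4, Klf2 and Socs3 in 3, and Tnfaip3 in 2. Over the 10 cells the Klf2 level was 19.2 (15.4 to 23.7) and the Klf4 level 6.98 (4.78 to 9.86). Klf6 was 11.1 (8.29 to 14.6) and Nfkbiz was 8.95 (6.42 to 12.1). The intervals of these genes include the microglial levels. Dusp1 was 29.9 (25.1 to 35.3), above the microglial 16.8. Zfp36, at 22.3 (18.1 to 27.0), Nfkbia, at 7.42 (5.14 to 10.4), and Socs3, at 4.15 (2.50 to 6.48), were below the microglial 29.3, 16.7 and 8.95. Between 56.1% and 100% of each gene's UMIs came from 2 of the 10 cells. In the 14 smooth muscle-like cells none of the 9 genes exceeded 1.40. The low-mitochondrial cells were low for every gene, from 0.0072 for Tnfaip3 to 0.20 for Nfkbia, at a median depth of 7235 UMIs.

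Other genes of the same routes were counted against all genes tested, of which 9.09% were at least 2-fold higher in microglia-like and 8.27% in endothelial-like cells. Of 9 further NF-kappaB and IkappaB genes, 7 were at least 2-fold higher in microglia-like cells, among them Rel (2.33 UMIs per 10,000), Nfkb1 (1.51) and Nfkbid (1.23). The list median was a log2 ratio of 1.27, and that of all genes -0.44. Of 7 measured A20 partners and deubiquitinases other than Tnfaip3, none was higher in microglia-like cells, with a median of 0.16. Tax1bp1, an A20 adaptor, was spread between 1.03 and 2.25 over the 6 classes. Of 8 further MAP kinase phosphatases, 4 were higher in microglia-like cells, led by Dusp6 (3.25), which acts on ERK, Dusp7 (1.15) and Dusp2 (0.74). Dusp4 was highest in neuroblast-like cells, at 0.47, and Dusp10 in oligodendrocyte-like cells, at 0.86. Of 10 MAP kinases and their activators, 1 was higher in microglia-like cells, against 9.09% of all genes.

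The closest relatives of Zfp36, the decay factors Zfp36l1 and Zfp36l2, were both at least 2-fold higher in microglia-like cells, at 8.73 and 3.97. Zfp36l1 was also high in endothelial-like cells (6.56) and pericyte-like cells (5.35). Of 8 known Zfp36 target mRNAs with enough UMIs, 6 were higher in microglia-like cells, with a median log2 ratio of 2.82, and they included Ccl4 (12.3), Ccl3 (7.77) and Ier3 (6.78). Tnf, the best-known target, was 1.94 in microglia-like cells and at most 0.03 in the other main classes. Il6 and Il1b were at 0.08 and 0.05 in microglia-like cells.

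Of 6 other SOCS genes measured, none was higher in microglia-like cells, against 9.09% of all genes. There Socs6 had 0.35, Socs4 0.24 and Socs7 0.20, and Socs2, which restrains growth hormone signalling, was 1.61 in endothelial-like cells. Of 9 genes of the gp130 to STAT3 route, 1 was higher in microglia-like cells, Il6ra (2.46), against 9.09% of all genes, and the shared receptor Il6st lay between 0.11 and 1.31.

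Among 9 other measured KLF genes none was higher in microglia-like cells and 3 were higher in endothelial-like cells, Klf10 (1.05), Klf11 (0.48) and Klf12 (0.46). The KLF genes with the highest endothelial levels after the members, Klf7 (2.81), Klf13 (2.49) and Klf9 (2.25), were less than 2-fold above the mean of the other classes. Klf9, a hormone-responsive member, was 0.05 in microglia-like cells and 2.70 in pericyte-like cells, and Klf15 was 1.02 in astrocyte-like cells and at most 0.21 in the others. Of 9 listed endothelial inputs and targets of Klf2, 6 were higher in endothelial-like cells, with a median log2 ratio of 3.14. The list does not separate targets by the direction of their regulation. The angiopoietin receptor gene Tek was 3.42, the caveolar gene Cav1 3.20 and the adhesion gene Vcam1 2.90. Endothelial nitric oxide synthase, Nos3, was 1.98, thrombomodulin, Thbd, 1.79, and endothelin, Edn1, 1.74, each at most 0.56 in every other main class. The MEF2 factors upstream of Klf2 differed from this: Mef2c was 8.55 in microglia-like and 1.87 in endothelial-like cells.

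Immediate early genes, which dissociation of tissue can induce, had a related pattern over the classes. Of 13 listed, 10 were at least 2-fold higher in microglia-like cells, where Jun reached 75.7, Junb 62.0 and Fos 47.4. Their summed level was 351 in microglia-like, 102 in pericyte-like, 80.4 in endothelial-like, 26.6 in neuroblast-like, 13.4 in oligodendrocyte-like and 12.1 in astrocyte-like cells. Pericyte-like cells thus had more of these than endothelial-like cells, whereas the 9 genes summed to 18.2 and 86.9 in the same pair. Both pericyte sums include the 4 of 70 cells rich in microglial markers, and the part of those cells in the 102 was not tested. The part of dissociation in the levels of the 9 genes was not tested. Of 6 measured glucocorticoid-responsive genes, 3 were higher in microglia-like cells, among them Sgk1 (11.4).

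The genes most like each of the 9 were found by Pearson correlation of log2(level + 0.1) over the 9 classes with at least 10 cells, among 10338 genes. The classes share 1 library and differ in depth, and these are descriptions. Klf2 was closest to the MHC class I gene H2-T23 (r = 0.99), followed by B2m and H2-D1 (0.97 and 0.96), and Klf4 to the TGF-beta receptor gene Tgfbr2 (0.98), followed by Psmb9 and H2-T23. Klf6 was closest to Casp8 (0.99), then B2m and Map3k8. Zfp36 was closest to Ier3 (0.97), then Casp8 and Jun, and Socs3 to Ppp1r15a (0.97), then Gpsm3 and Junb. Dusp1 was closest to Aftph (0.97), Nfkbia to Slco2b1 (0.98), Nfkbiz to Cmtm7 (0.97) and Tnfaip3 to Cd37 (0.99). Among themselves, the 36 pairs of the 9 genes had r between 0.68 and 0.96, with a median of 0.88.

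Within a class the genes varied in different ways. To compare cells of unequal depth, each cell was thinned at random to 2000 UMIs, which kept 367 of 388 microglia-like, 95 of 129 endothelial-like and 144 of 301 astrocyte-like cells. The median cell then held a UMI of 6 of the 9 genes in microglia-like, 4 in endothelial-like and 0 in astrocyte-like cells. Klf2 had the highest ratio of variance to mean of the 9 genes in microglia-like cells, 7.09, where pure counting gives a ratio of 1. For the same relative spread this ratio rises with the mean, which was 3.46 UMIs for Klf2 and 1.37 for Klf4. The order of the ratios is therefore not an order of relative spread. No Klf2 UMI was left in 33.5% of cells, while 10.4% had 10 or more. Zfp36, on a higher mean, had a ratio of 2.03, and only 3.81% of cells had no UMI. Klf6 (4.20), Klf4 (3.87) and Dusp1 (3.36) followed Klf2, ahead of Nfkbia (2.84), Socs3 (2.32), Nfkbiz (1.83) and Tnfaip3 (1.12). In endothelial-like cells Klf2 had a ratio of 3.25, with 4.21% of cells at 0 and 36.8% at 10 or more. Before thinning, Klf2 was seen in 81.4% of microglia-like cells, against 66.5% after it.

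**Figure D3:**
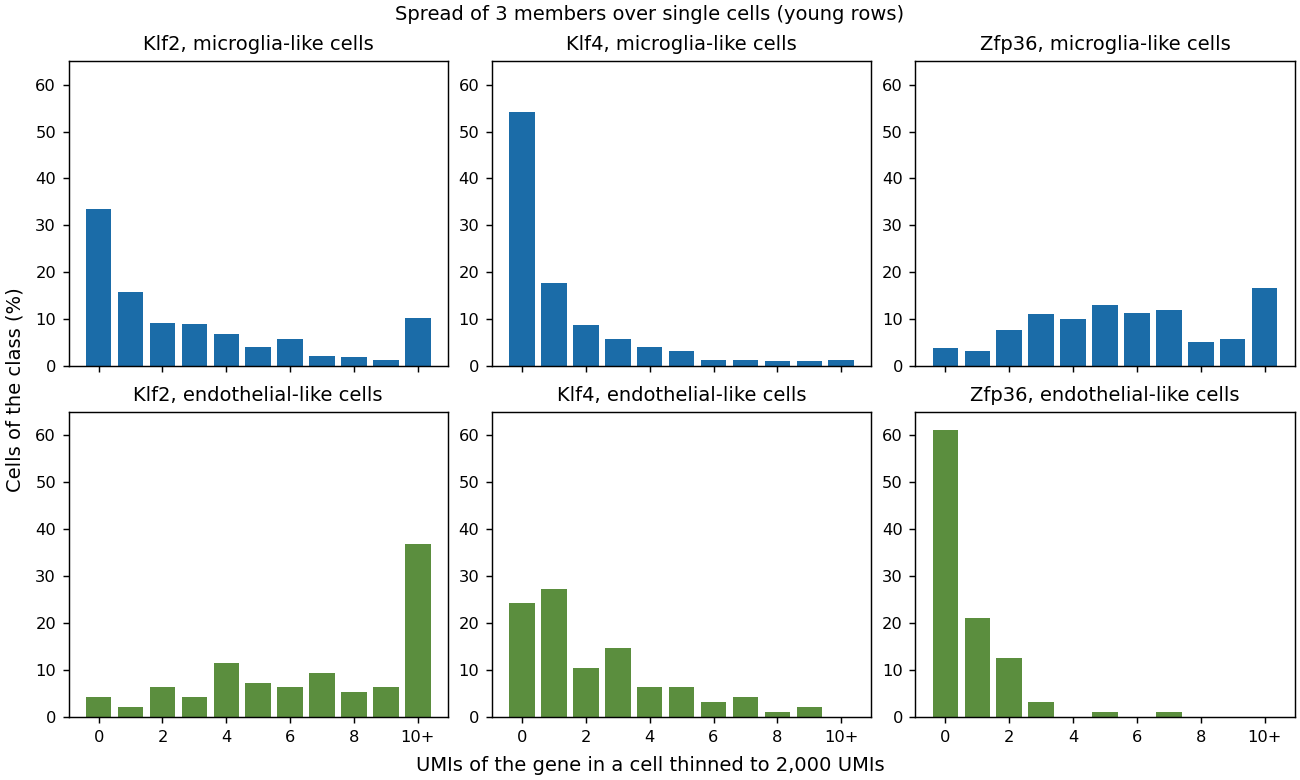
Bars give the percentage of microglia-like (top) and endothelial-like (bottom) cells of the young rows with each number of UMIs of Klf2, Klf4 or Zfp36 after thinning to 2,000 UMIs per cell; 10+ stands for 10 or more. Klf2 is at 0 in 33.5% of microglia-like and 4.21% of endothelial-like cells, and Zfp36 at 0 in 3.81% and 61.1%.

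The same microglia-like cells were set in 3 ranges of Klf2: 123 cells with no UMI, 92 with 1 to 2 and 152 with 3 or more. Their median depths before thinning were 7894, 8637 and 7660.5 UMIs. Klf4 was 3.82, 6.41 and 9.61 UMIs per 10,000 across these ranges, with intervals that did not overlap between the lowest and highest (3.09 to 4.68 and 8.54 to 10.8). Klf6 was 5.57, 9.67 and 15.9, and Dusp1 was 12.6, 14.2 and 22.0. Nfkbia went the other way, at 19.1, 16.4 and 14.6, with intervals of 17.4 to 20.9 at the low end and 13.2 to 16.0 at the high end. Nfkbiz (7.56, 10.1 and 8.52), Socs3 (9.07, 8.42 and 8.59) and Tnfaip3 (0.93, 1.09 and 1.15) showed no order beyond their intervals. Zfp36 was 28.0, 28.0 and 33.0, with intervals of 26.0 to 30.2 and 31.0 to 35.1 at the low and high ends. The microglial markers P2ry12 (23.0, 21.8 and 23.6) and Cx3cr1 (29.1, 29.3 and 30.9) were near constant. Fos was 39.3, 44.3 and 58.1, and Tnf was 2.28, 2.23 and 1.09. Ccl3 (7.80, 6.20 and 9.44) and Ccl4 (14.8, 11.03 and 12.01), listed with Tnf as Zfp36 targets, did not fall step by step. Whether Tnf, Ccl3 or Ccl4 differed between the ranges beyond the spread between cells was not tested. The ranges are parts of a continuum rather than cell types, and they were set after the Klf2 values were seen. These intervals leave out the spread between cells, where variance over mean was 2.84 for Nfkbia and 2.03 for Zfp36. With that spread added, the lowest and highest ranges of these 2 genes could overlap. Over single cells, Klf2 and Nfkbia had r = -0.11.

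**Figure D4:**
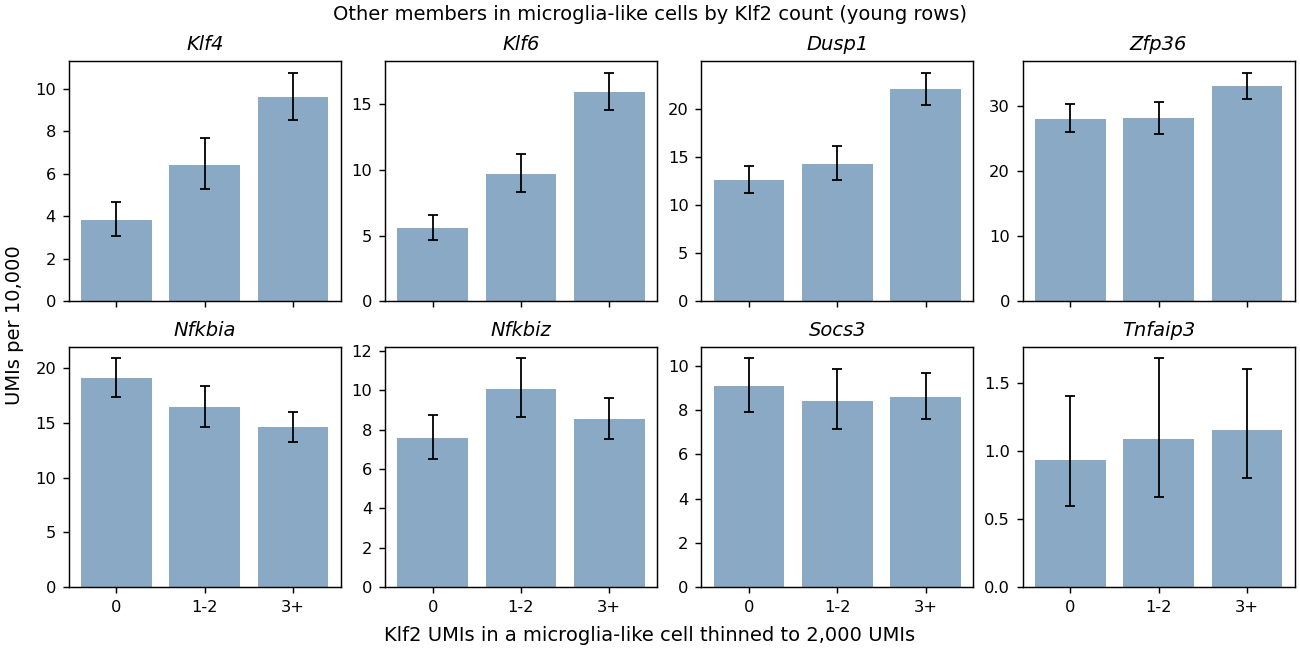
Bars give the level of each of the other 8 genes, in UMIs per 10,000, in microglia-like cells of the young rows with 0, 1 to 2 or 3 and more Klf2 UMIs after thinning; lines are exact Poisson 95% intervals over summed UMIs. Between the lowest and highest ranges Klf4, Klf6, Dusp1 and, by less, Zfp36 are higher with more Klf2, Nfkbia is lower, and the intervals of Nfkbiz, Socs3 and Tnfaip3 overlap between the lowest and highest ranges.

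Over single cells the correlations between these genes were weak. The part of sparse counts in this was not tested. Among Klf2, Klf4, Klf6 and Dusp1, the 6 pairs had r between 0.21 and 0.38 in microglia-like cells and between 0.05 and 0.46 in endothelial-like cells. Between these 4 and Nfkbia, Nfkbiz, Socs3 and Tnfaip3, the 16 pairs had a median r of 0.04 in microglia-like and 0.09 in endothelial-like cells. Among Nfkbia, Nfkbiz, Socs3 and Tnfaip3 themselves, the 6 pairs had a median r of 0.13 and -0.0035. These genes thus formed no set of their own in endothelial-like cells. Zfp36 was left out of both sets.

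Endothelial-like cells were divided by vessel markers into cells with arterial or capillary markers alone. Klf2 was 56.0 (49.3 to 63.3) in 13 arterial-marked cells and 37.9 (35.3 to 40.6) in 64 capillary-marked cells. These intervals leave out the spread between cells, where variance over mean was 3.25 for Klf2 in thinned endothelial-like cells. With that spread added, the Klf2 intervals could overlap. Klf4 was 14.0 (10.8 to 17.9) and 12.3 (10.8 to 13.9), and Klf6 was 7.44 (5.15 to 10.4) and 4.70 (3.81 to 5.75), with overlapping intervals. Dusp1, at 12.03 and 14.0, and Nfkbia, at 6.78 and 9.75, were not higher in the arterial-marked cells. Venous markers alone were found in only 2 cells, and no values are given for them. Astrocyte-like cells fell in 2 clusters of unequal depth, with median UMIs of 1383 in 209 cells and 4690 in 92 cells. Klf2 and Klf4 were each 0.41 in the shallower and 0.07 in the deeper cluster, whereas Dusp1 was 0.71 and 1.31.

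Over barcodes in the same class in both libraries, the old rows repeated the young ones. The 54 pairs of gene and class differed by log2 values of -0.08 to 1.00, with a median of 0.11, and 37 lay within 0.2 of 0. The pair at 1.00 was Klf2 in neuroblast-like cells, on 2 and 9 UMIs. In 41 of the 54 pairs the old rows were higher: 26 of 27 in astrocyte-like, neuroblast-like and oligodendrocyte-like cells, and 15 of 27 in the other 3 classes. The summed level of microglial markers in neuroblast-like cells was 0.76 in young and 4.76 in old rows, and in oligodendrocyte-like cells 1.17 and 3.98. The part of these RNAs in the differences was not tested.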

How the data were processed

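The submitters' processing notes name Cell Ranger 5.0.0 and the build mm10, without further settings. The table the authors deposited holds natural log values, ln(1 + UMIs per 10,000), for every cell and gene, with the library in the cell name. These were turned back into UMI counts, which came out whole within 0.01 (or 1 part in 10000 for large values). With scanpy 1.11.5, 2000 variable genes, 30 principal components, 15 neighbours and Leiden clustering at resolution 1 gave the clusters. A class needed at least 3 markers seen in 25% of its cells and 4-fold higher than elsewhere. Doublet calls (37 young, 23 old) were kept. Genes with at least 20 UMIs over the main classes entered the comparisons. The fold calculation was checked on simulated data. Each pathway list names at most its 3 highest genes in the class where its member peaks, plus listed genes at least 4-fold apart between classes, and 3 most alike genes were found per member. Il6, Il1b and the genes of the immediate early and glucocorticoid lists were named after their values were seen. Vessel markers and the limit of 50 microglial UMIs were set with values known. The members and lists were chosen with earlier results of these data known. Alternatives covered the rows used, doublets, clustering, level, fold limit, pseudocount and gene minimum.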

Additional observations from a re-analysis of the deposited data

How the results depend on the processing

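Among the 6 main classes, Klf2 and Klf4 stayed highest in endothelial-like cells, and the other 7 genes in microglia-like cells, under each of the 9 alternatives in which levels were recomputed over all of these classes. The 12 counts of genes at least 2-fold higher or lower were within 1.5 times their value under old rows, shared barcodes, doublets removed, resolutions 0.5 and 2, all variable genes, means over cells, a pseudocount of 0.5, no UMI minimum and, added after the data were seen, without cells rich in microglial markers. That range allows a change: under old rows, under shared barcodes and without cells rich in microglial markers, Zfp36 and Nfkbiz also counted as lower in pericyte-like cells. Pericyte-like cells, with 4 lower genes, had 7 with young rows clustered alone, 9 with the other cells pooled and 2 at a limit of 3-fold. Endothelial-like cells, with 4 higher genes, had 2 with the other cells pooled and 2 at 3-fold, and with 2 lower genes had 4 with the other cells pooled and 4 at 1.5-fold. Pooling gives the many microglia-like cells more weight, and the other limits act by construction; the cause of the difference with young rows clustered alone was not tested. No result reversed. Depth limits the smallest values: 18 of 45 neighbouring pairs of classes did not differ beyond counting error. No paired analysis was possible because each age has 1 library and most brain barcodes occur in both.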
